A study of Homo sapiens with 8 samples.

Results

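The first 5 Mb of chromosome 16 lie at the tip of the short arm in the cytogenetic band 16p13.3 and are called 16p13.3 below, although the band itself runs on past that limit. Members were all windows of the deposited table (hg19 build) on chromosome 16 with a start from 1 to 5000000. There were 3225 of them, out of 256141 windows of 150 bp in the whole table (1.26%), and those no more than 100 bp apart merged into 400 regions, out of 35741. The rule used position alone, within a table whose windows all have at least 111 summed counts. It was set with earlier results of these data known.

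The table comes from FAIRE-seq of AIRE-Tet cells, a derivative of the Tet-On Advanced HEK293 line (human embryonic kidney) in which doxycycline switches on human AIRE. The design crossed AIRE induction with etoposide in 4 groups of 2 biological replicates. DoxEtop cells received 1.5 µM doxycycline and then 2 µM etoposide for 24 h, Dox cells received 1.5 µM doxycycline alone, Etop cells received 2 µM etoposide for 24 h, and Control cells received neither agent. All groups share the line and its transgene. AIRE is placed there by forced expression in a cell type that is not its natural one, and doxycycline in cells that lack the transgene was not analysed here. "AIRE induction" therefore stands for doxycycline in these cells, and the drug and AIRE cannot be told apart. Whether the line is 1 clone is not given in the sources used here, and its identity was not checked against marker genes because the windows carry no gene names.

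FAIRE-seq recovers DNA that is poorly held by nucleosomes after formaldehyde fixation, which in most cell types means active promoters, enhancers and other regulatory elements. AIRE, the autoimmune regulator, binds chromatin broadly and releases stalled RNA polymerase II, and in the thymus it lets epithelial cells express many tissue-restricted genes. Etoposide traps topoisomerase II on DNA and leaves breaks, and topoisomerase-linked breaks have been placed in the same pathway as AIRE. The end of 16p is gene-dense and rich in CpG islands, and it is known for the alpha-globin genes with their remote enhancers, for the neighbours TSC2 and PKD1, and for CREBBP, a histone acetyltransferase. No window is assigned to a gene here, since no annotation of the hg19 build was used, and no genome sequence of that build was used either.

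Open windows were spread unevenly over 16p13.3. The first window started at 103001 and the last at 4995751, and the 400 regions covered 215000 bp, 4.3% of the 5 Mb. Region widths ran from 150 to 2500 bp with a median of 400 bp, against 350 bp for all regions of the table, and 54 regions were over 1000 bp wide. Segments of 500 kb held between 94 and 511 windows. The emptiest, from 3500001 to 4000000, contained the longest stretch without a window, 161550 bp from 3767900 to 3929451. The segment from 3000001 to 3500000 held the most windows, in 53 regions.

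Signal in 16p13.3 was close to the median height of the table, without very tall windows. The median window had a mean of 3.34 CPM (counts per 1000000 counts of the scaled window total) over the 8 libraries, against 3.42 CPM in the whole table. The tallest member, the window at 2097801 in the region from 2097051 to 2098550, averaged 9.09 CPM, where the tallest window of the table reached 127 CPM. It had 51 and 78 counts in DoxEtop and 51 and 50 in Dox, against 46 and 29 in Etop and 72 and 36 in Control. On the CPM scale all 4 induced libraries were above all 4 others, at 9.51 to 15.4 CPM against 5.39 to 8.67 CPM, with a log2 fold change of 0.74 (SE 0.235, edgeR adjusted p = 0.0402).

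In the other 7 of the 8 tallest regions the leading window, named for its height, did not pass the test of AIRE induction. These windows started at 2961801, 2264951, 3053901, 1832801, 4818751, 1470801 and 2273451 and averaged 8.43 to 9.04 CPM, with log2 fold changes between -0.39 and 0.41 and edgeR adjusted p-values of 0.305 to 0.939. In each of them the induced and the other libraries overlapped. The last, in the region from 2273101 to 2274350, had 2 other windows that rose, with log2 fold changes of 0.79 and 1.08. Among the widest regions, the tallest windows of the second and the third in width, at 2054001 and 128151, had log2 fold changes of 0.41 and 0.84 and did not pass either (edgeR adjusted p = 0.340 and 0.179).

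The deposited counts are sparse at the level of a single window. The median member window had 21 and 18 counts in the DoxEtop libraries and 18 and 16 in the Dox libraries, against 24 and 15 in the Etop libraries and 27 and 20 in the Control libraries. Replicates of a group differed by more than counting noise, by a chi-square that, divided by its degrees of freedom, was 1.94 to 3.20 when 1 window, the tallest, was taken from each of the 400 regions. Across member windows, which are not independent, log2 levels correlated at 0.287 to 0.483 between replicates and at a median of 0.235 between libraries of different AIRE state. Total window counts per library ran from 4489871 to 8275911.

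Summed over its windows, 16p13.3 held a larger share of the FAIRE counts in induced libraries than in libraries without induction. It held 1.39% and 1.30% of all window counts in DoxEtop and 1.248% and 1.247% in Dox, against 1.18% and 1.16% in Etop and 1.16% and 1.03% in Control. The 4 induced libraries averaged 1.30 ± 0.068% and the 4 others 1.13 ± 0.071% (SD, n = 4 each), and these 2 sets did not overlap. No test is given for these shares, since they sum over the chosen members.

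The same order was seen in the median window. Relative to the mean of the 8 libraries, the median log2 level of 16p13.3 windows was 0.20 and 0.10 in DoxEtop and 0.06 in each Dox library, against -0.0058 and -0.023 in Etop and -0.019 and -0.19 in Control. DoxEtop replicate 1 was the highest library and Control replicate 2 the lowest. Without DoxEtop replicate 1 the median log2 fold change with AIRE induction was 0.18 in 16p13.3, and without Control replicate 2 it was also 0.18, against 0.23 with all libraries. For comparison, the median over the whole table with all libraries was 0.036.

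**Figure D1:**
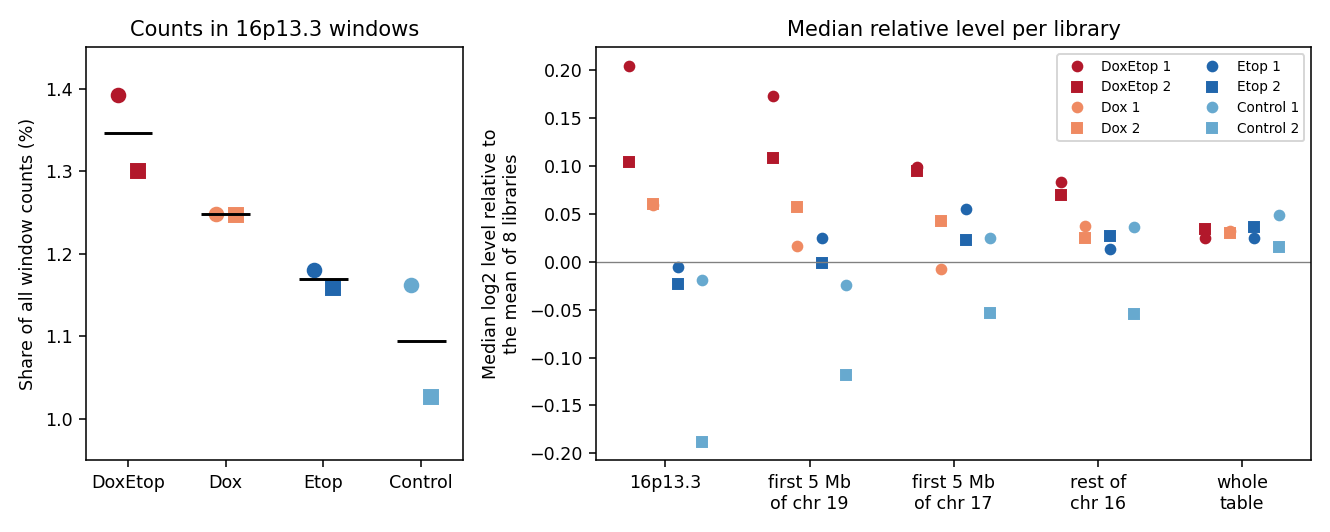
Left, share of each library's window counts that lay in 16p13.3 windows (%), by group, with bars at group means; right, median log2 level relative to the mean of the 8 libraries in 16p13.3 and in other sets of windows. The 4 induced libraries sit at 1.25% to 1.39% on the left, above the 4 others at 1.03% to 1.18%, and the libraries lie closer together in the whole table than in 16p13.3.

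AIRE induction moved 16p13.3 windows up about as often as down, in a table where most called windows moved down. With etoposide held as a second factor over all 8 libraries, 66 member windows rose and 65 fell (edgeR's quasi-likelihood test, Benjamini-Hochberg adjustment over all windows at 0.05). Those that rose were 2.05% of the members, where 1.27% of all windows rose, and those that fell were 2.02%, where 6.17% of all windows fell. Windows that rose had a median log2 fold change of 1.19, and those that fell one of -1.37. How the windows of the table were selected is not given in the sources used here, and induced libraries had totals of 4489871 to 5305079 counts, against totals of 4568818 to 8275911 without induction. Among the 204477 windows that pass a minimum of summed counts also with the levels of the induced and the other libraries exchanged, a filter chosen after seeing the data, 2734 rose and 10836 fell, and the median was 0.24 over the members and 0.064 over all such windows.

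Most members did not pass the test, but the bulk leaned upwards. A positive log2 fold change was found at 65.4% of the 3225 members and at 52.5% of all windows, and the quartiles of the members were -0.17 and 0.51, against -0.41 and 0.39 in the table. With a single window per region, the tallest, the median was 0.17 over the 400 regions of 16p13.3 and -0.029 over all 35741 regions. All 4 induced libraries were above all 4 others at 258 member windows (8%, where 4.98% of all windows were) and below them at 96 (2.98%, where 7.49% of all windows were).

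The number of calls depended on single libraries and on the tool. Of 131 calls with all libraries, the number came to 32 without Control replicate 2, 42 without DoxEtop replicate 1, 55 without Dox replicate 2, 79 without DoxEtop replicate 2 and 83 without Dox replicate 1, and limma-voom gave 6, of which 3 were lower and 3 higher. With loess offsets the split of the calls moved to 74 higher and 39 lower.

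Tested as merged regions, 21 of the 400 regions fell (5.25%, where 12.9% of all regions fell) and 7 rose (1.75%, where 1.42% rose). The test by region combined the p-values of its windows (Simes' method) and adjusted over all 35741 regions, and the direction is that of its window with the smallest p. The 7 regions that rose were wide, with a median of 1150 bp, where the median of all 400 regions was 400 bp. Those that fell were close to that, with a median of 350 bp, and 12 of the 21 were no wider than 350 bp. The contrast was smaller among regions that held any called window, with medians of 1050 bp for gains and 600 bp for losses. In the rest of the table, too, windows of wider regions rose more often. There 0.54% rose in regions no wider than 300 bp and 1.71% in those of 1000 to 2000 bp. With limma-voom 0 of the 400 regions passed.

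**Figure D2:**
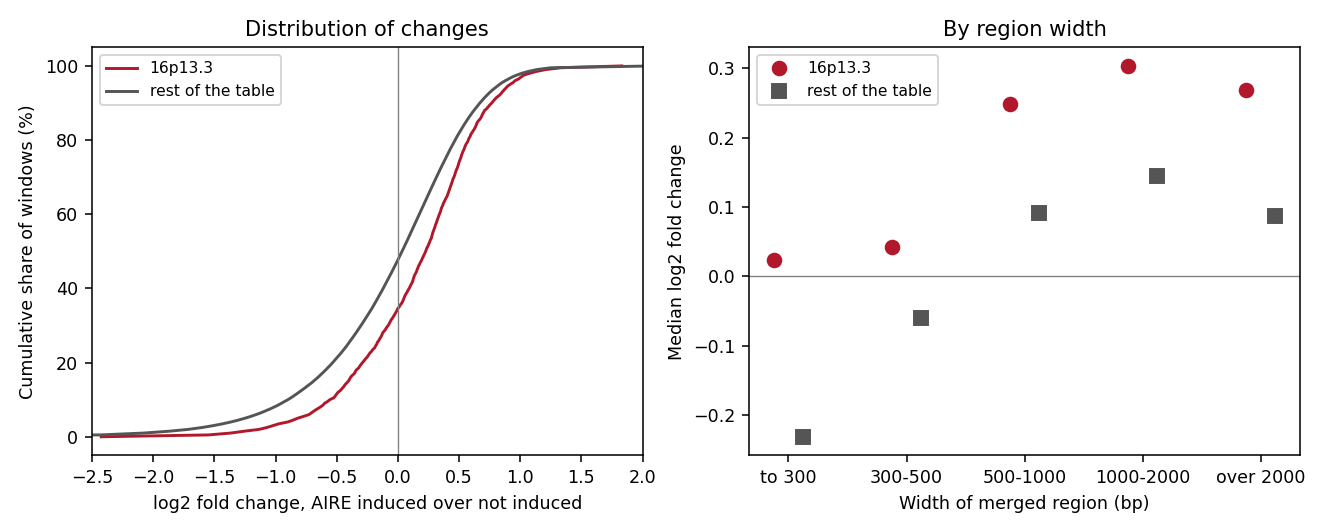
Left, cumulative share of windows (%) against the log2 fold change with AIRE induction in 16p13.3 and in the rest of the table; right, median log2 fold change by width of the merged region (bp). The 16p13.3 curve lies to the right of the other except at its upper end, and the 16p13.3 medians, from 0.02 to 0.30, lie above those of the rest of the table in each width class.

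Relative to the rest of the table, members leaned upwards at every region width and every signal height. For regions no wider than 300 bp, the 312 windows of 16p13.3 had a median log2 fold change of 0.024, against -0.23 over the rest of the table. Between 1000 and 2000 bp of width the 1091 member windows had a median of 0.30, against 0.15 in the rest. The 3 regions over 2000 bp held 114 windows with a median of 0.27, against 0.087 in the rest.

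Split by mean level into the quartiles of the table, 16p13.3 windows had medians of 0.15, 0.18, 0.25 and 0.32 from the lowest to the highest quartile. The rest of the table had -0.059, -0.0046, 0.066 and 0.10. In the highest quartile 24 of 744 member windows rose (3.23%, against 2.00% in the rest) and 7 fell (0.94%, against 5.43%). In the lowest 9 of 868 rose (1.04%, against 0.77% in the rest) and 19 fell (2.19%, against 6.62%). These medians and shares are descriptions of overlapping windows, and no test of the difference between 16p13.3 and the rest was made.

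The ends of 2 other chromosome arms and the rest of chromosome 16 leaned the same way by smaller amounts. The medians were 0.23 in 16p13.3, 0.16 in the first 5 Mb of chromosome 19, 0.10 in the first 5 Mb of chromosome 17 and 0.073 in the rest of chromosome 16. Called windows were lower in 49.6% of cases in 16p13.3, against 69.2% at the chromosome 19 end, 75.7% at the chromosome 17 end and 73.5% in the rest of chromosome 16. Among the 142 segments of 5 Mb with at least 500 windows, 16p13.3 ranked 4 for its median, behind the ends of 9q, 14q and 22q, whose segments start at 140000001, 105000001 and 50000001 and had medians of 0.29, 0.24 and 0.24. It ranked 6 for its number of windows, and 6 of those segments had a smaller share of windows that fell. Its share of windows that rose ranked 24.

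Most gains lay at or before 3 Mb, and past that point losses outnumbered gains. Of the 2090 windows that start at or before 3 Mb, 62 rose and 27 fell, whereas of the 1135 windows past 3 Mb, 4 rose and 38 fell. For comparison, 1.27% of all windows of the table rose and 6.17% fell, so that 82.9% of its called windows were lower. Before 3 Mb the median was 0.27, and past it 0.15. The 500 kb nearest the telomere (283 windows) also had a median of 0.27, but 7 of its windows fell and 1 rose. By merged region, all 7 that rose and 9 of the 21 that fell lay at or before 3 Mb, and the other 12 lay past it. The boundary was chosen after the values had been seen, and the contrast between the 2 stretches was not tested.

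Gains gathered in few segments, and the segments named here are those with the most windows. Windows of a region overlap, so the counts are not of separate changes. The segment from 500001 to 1000000 (482 windows) held 22 windows that rose and 6 that fell, and that from 2000001 to 2500000 (496 windows) held 19 and 8. The segment from 3000001 to 3500000 (511 windows) had 21 windows that fell and 3 that rose, the most losses of any segment by number. It also held the most windows, and the share of them that fell was below the 6.17% of all windows that fell. For gains, the share of all windows was 1.27%. The segment from 4500001 to 5000000 (246 windows) had 10 windows that fell and 1 that rose. The median log2 fold change of the segment from 3000001 to 3500000 was still above 0, at 0.12. The lowest median was 0.088, in the segment from 4500001 to 5000000.

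Both stretches depended on the libraries. Losses past 3 Mb numbered 7 without Control replicate 2, 11 without DoxEtop replicate 1, 20 without Dox replicate 2, 22 without Dox replicate 1 and 24 without Etop replicate 2. Gains before it numbered 13, 17, 20, 39 and 41 in the same order, as well as 27 when DoxEtop replicate 2 was dropped and 41 when Etop replicate 1 was. With loess offsets, 17 windows rose and 17 fell past 3 Mb. limma-voom called 0 windows past 3 Mb.

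**Figure D3:**
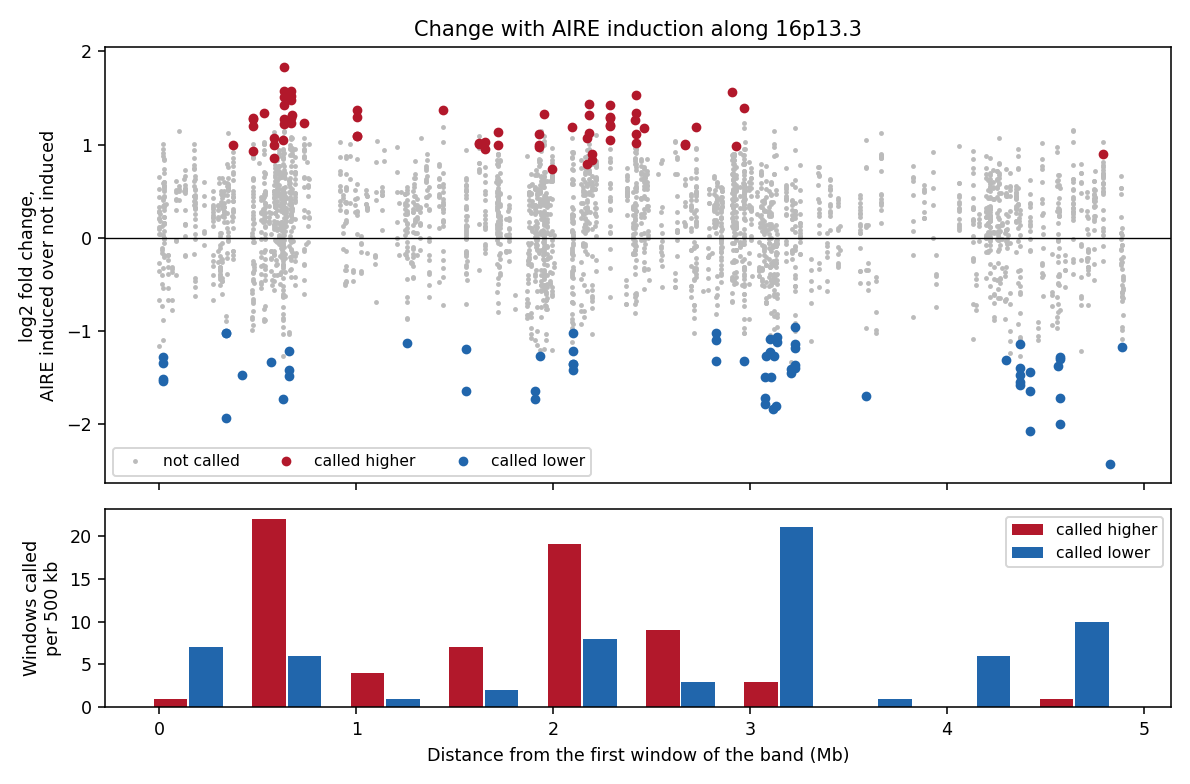
Top, log2 fold change with AIRE induction at each of the 3225 windows against distance from the first window (Mb), with called windows in color; bottom, windows called per 500 kb. Of the 66 windows that rose, 62 start at or before 3 Mb of the chromosome, but only 1 lies in its first 500 kb, where 7 fell. The most losses in a segment, 21, lie in the segment from 3000001 to 3500000, which also held the most windows.

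The strongest gain of 16p13.3 lay inside its widest region, from 732701 to 735200. Its window at 733851 had 40 and 27 counts in DoxEtop and 21 and 19 in Dox, against 4 and 9 in Etop and 18 and 7 in Control. It averaged 5.25 ± 1.59 CPM in induced libraries and 1.44 ± 0.756 CPM in the others (SD, n = 4 each). The log2 fold change was 1.83 (SE 0.404, edgeR adjusted p = 0.00165). All 4 induced libraries were above all 4 others, and DoxEtop replicate 1 was the highest. The tallest window of this region, at 734301, did not pass the test, with a log2 fold change of 0.49 (SE 0.258, edgeR adjusted p = 0.243). Beyond it, the window at 734951 rose, with a log2 fold change of 1.51 (SE 0.411, edgeR adjusted p = 0.0134). Differences between windows of the region were not tested.

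A second gain nearby was found in the region from 770301 to 771700. The window at 771101 had 26 and 28 counts in DoxEtop and 30 and 33 in Dox, against 13 and 13 in Etop and 20 and 7 in Control. Its log2 fold change was 1.52 (SE 0.352, edgeR adjusted p = 0.00285), and 5 windows of the region rose. Both Dox libraries were above both DoxEtop libraries here on the CPM scale, a difference that did not pass the test.

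Further along, the window at 2524851 in the region from 2524051 to 2525200 had 22 and 31 counts in DoxEtop and 26 and 22 in Dox, against 22 and 8 in Etop and 15 and 2 in Control. Its log2 fold change was 1.53 (SE 0.398, edgeR adjusted p = 0.00908). The raw count of Etop replicate 1 equals that of DoxEtop replicate 1 and of Dox replicate 2, and the sets separate only after scaling to library totals, at 4.10 to 6.13 CPM against 0.30 to 3.16 CPM.

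A gain that was even over the induced libraries was at 1105251, in a region of 400 bp from 1105051 to 1105450. Counts were 36 and 30 in DoxEtop and 32 and 27 in Dox, against 15 and 8 in Etop and 31 and 15 in Control. The induced libraries averaged 6.18 ± 0.367 CPM and the others 2.47 ± 0.868 CPM (SD, n = 4 each), with a log2 fold change of 1.30 (SE 0.324, edgeR adjusted p = 0.00627).

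The tallest of the windows named for their gain was at 2033551 (region 2033401 to 2034850). It averaged 7.49 ± 0.544 CPM in induced libraries and 3.57 ± 1.35 CPM in the others (SD, n = 4 each). The log2 fold change was 1.12 (SE 0.286, edgeR adjusted p = 0.00791). The other 5 windows named for their gain, at 838601, 577251, 2563701, 1823351 and 731101, had log2 fold changes of 1.05 to 1.23 with edgeR adjusted p-values of 0.0118 to 0.0499. The last of these is at the threshold. In all 10 the induced libraries were above the others.

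**Figure D4:**
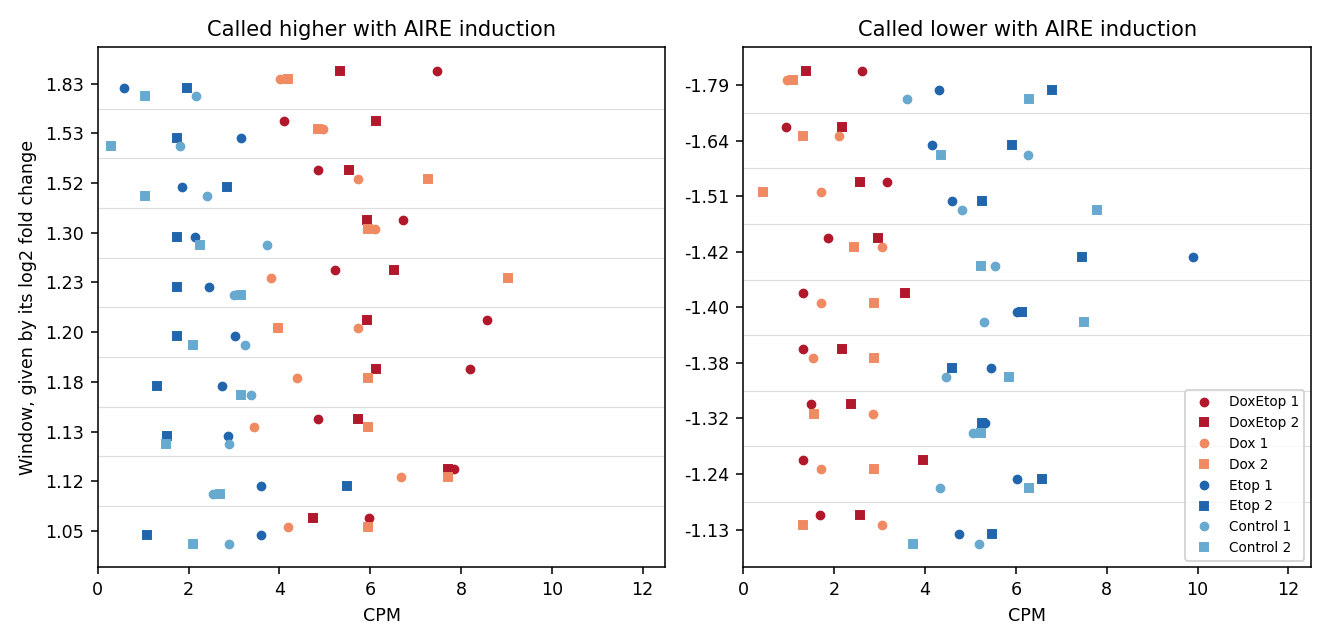
CPM of each library at the windows named for their change with AIRE induction, 10 that rose (left) and 9 that fell (right), each window on a line labelled by its log2 fold change. The induced libraries in red and orange and the other libraries in blue do not overlap in any of these windows, which is part of the rule that named them.

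The deepest loss among windows of above-median level was at 3179501, in a region of 250 bp from 3179451 to 3179700. It had 14 and 7 counts in DoxEtop and 5 in each Dox library, against 30 and 31 in Etop and 30 and 42 in Control. The level was 1.51 ± 0.754 CPM in induced libraries and 5.25 ± 1.53 CPM in the others (SD, n = 4 each). The log2 fold change was -1.79 (SE 0.393, edgeR adjusted p = 0.00159). All 3 windows of the region fell.

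At the start of a region of 1250 bp, the window at 1661951 had 5 and 11 counts in DoxEtop and 11 and 6 in Dox, against 29 and 27 in Etop and 52 and 29 in Control. It fell by 1.64 on the log2 scale (SE 0.381, edgeR adjusted p = 0.00296). Only 2 windows of this region passed the test, both at its edge nearest the telomere.

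Close to the telomere, the window at 121551 (region 121401 to 122300) had 17 and 13 counts in DoxEtop and 9 and 2 in Dox, against 32 and 24 in Etop and 40 and 52 in Control. Its log2 fold change was -1.51 (SE 0.378, edgeR adjusted p = 0.00628). On the CPM scale the Dox libraries were below the DoxEtop libraries, a difference that did not pass the test.

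In the region from 2205251 to 2205900, 4 adjoining windows fell. The strongest, at 2205401, had 10 and 15 counts in DoxEtop and 16 and 11 in Dox, against 69 and 34 in Etop and 46 and 35 in Control, a log2 fold change of -1.42 (SE 0.315, edgeR adjusted p = 0.00185). Overlapping windows share fragments, so these are not 4 separate changes.

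The other 5 windows named for their loss were at 3333251, 4666351, 2932751, 3202751 and 1361001, with log2 fold changes of -1.40 to -1.13 and edgeR adjusted p-values of 0.00439 to 0.0437. At 2932751 the induced libraries had 2.07 ± 0.665 CPM and the others, nearly alike, 5.22 ± 0.111 CPM (SD, n = 4 each). At 3333251, inside a region of 1700 bp, 5 windows fell while the remainder of the region did not pass the test.

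The lowest fold change of all members was at 4932851, a region of a single window whose mean level was below the median of the members. It had 9 and 5 counts in DoxEtop and 4 and 0 in Dox, against 58 and 12 in Etop and 20 and 32 in Control, a log2 fold change of -2.43 with an edgeR adjusted p of 0.000556.

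**Figure D5:**
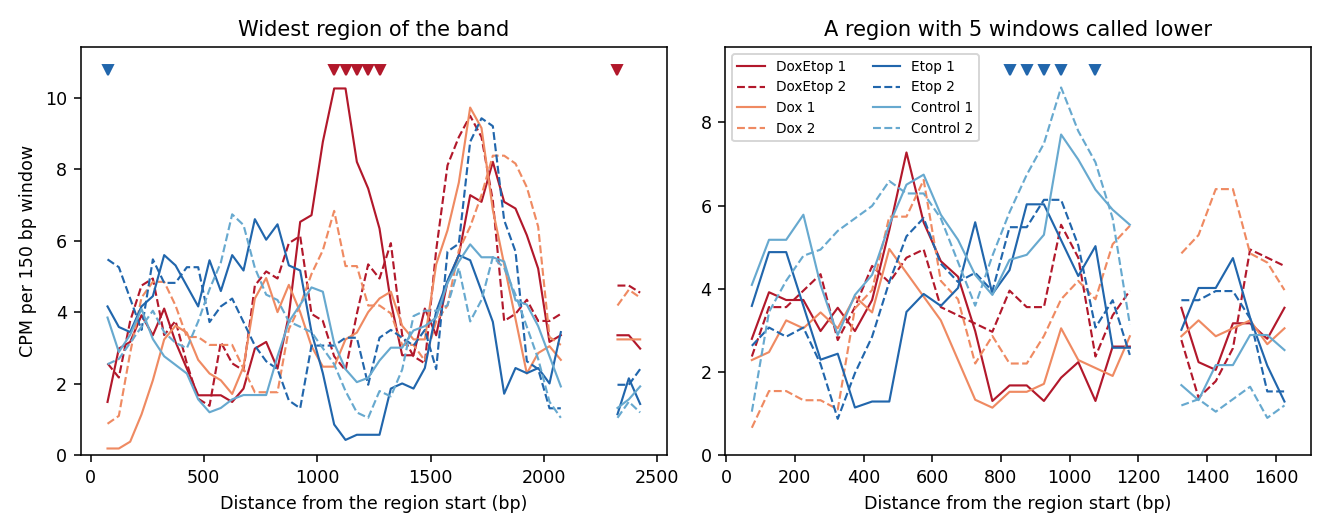
CPM per window in each library along the widest region (732701 to 735200, left) and along a region with 5 windows that fell (3332401 to 3334100, right), against distance from the region start (bp); triangles mark windows called higher (red) or lower (blue) and breaks are stretches without windows. On the left the libraries part over a few windows and overlap at the tallest ones, and on the right the Control and Etop libraries stand above most of the others around the marked windows, with some overlap by DoxEtop replicate 2 and Dox replicate 2.

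At the edges of the 5 Mb, the values were as follows. The first member window, at 103001, averaged 1.69 ± 0.67 CPM in induced libraries and 3.85 ± 1.40 CPM in the others, and the last, at 4995751, averaged 2.64 ± 2.08 CPM in induced libraries and 2.88 ± 2.04 CPM in the others (SD, n = 4 each). The first window past the limit, at 5006201, had 2 and 3 counts in DoxEtop and 3 and 7 in Dox, against 40 and 20 in Etop and 32 and 32 in Control. Its level was 0.771 ± 0.525 CPM in induced libraries and 4.69 ± 0.799 CPM in the others, a log2 fold change of -2.62, lower than that of every member.

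Induction in cells given etoposide (DoxEtop vs Etop) changed 32 members, 15 higher and 17 lower. The windows that rose were 0.465% of the members, where 0.45% of all windows rose, and those that fell were 0.527%, where 2.43% of all windows fell. By merged region 1 rose (0.25%, where 0.613% of all regions rose) and 7 fell (1.75%, where 5.36% of all regions fell). Members had a median log2 fold change of 0.20, and all windows one of 0.02, and without DoxEtop replicate 1 the members' median was 0.12. Without Etop replicate 1 or DoxEtop replicate 1 the count was 0, and it was 19 without DoxEtop replicate 2, 20 without either Dox library and 121 without Etop replicate 2. DESeq2 gave 8, limma-voom 0, and loess offsets 24 higher and 7 lower.

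The smallest adjusted p of this comparison belonged to a gain at 1728101 (region 1727951 to 1728400). The window had 42 and 49 counts in DoxEtop and 12 and 13 in Etop. This is a log2 fold change of 1.98 (SE 0.427, edgeR adjusted p = 0.00505, n = 2 libraries each). The Dox libraries had 56 and 25 counts and the Control libraries 56 and 42, so that the Etop libraries were the low pair. The same window had the smallest p of Etop vs Control in 16p13.3, with a log2 fold change of -1.55, and did not pass there (edgeR adjusted p = 0.863).

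Other gains with induction in etoposide-treated cells were at 733851, 3073851, 2563701, 1105251, 4897201 and 2961851, with log2 fold changes of 1.32 to 2.42 and edgeR adjusted p-values of 0.0135 to 0.046. At 3073851 the DoxEtop libraries had 38 counts each, against 7 and 16 in Etop. The windows at 2205451 and 1662001 fell, with log2 fold changes of -1.88 and -1.63. The first of these had 11 and 15 counts in DoxEtop libraries, against 76 and 34 in Etop ones.

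Where no etoposide was given (Dox vs Control), induction changed 6 members, 1 higher and 5 lower. The gain was 0.031% of the members, where 0.0156% of all windows rose, and the losses were 0.155%, where 0.848% of all windows fell. By merged region 2 fell (0.5%, where 1.84% of all regions fell) and 0 rose, where 0.0168% of all regions did. Members had a median of 0.19, and all windows one of 0.021. The members' median was 0.11 without Control replicate 2 and 0.29 without Control replicate 1. The count was 0 without Control replicate 2, Dox replicate 1 or Dox replicate 2, 14 without Control replicate 1, and 12 and 11 when Etop replicate 1 or Etop replicate 2 was dropped. It was 0 with DESeq2 and limma-voom and 3, all lower, with loess offsets.

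The 6 windows lay in 4 regions, and their strongest windows are all described above. At 121551 the Dox libraries were at 1.08 ± 0.902 CPM and the Control libraries at 6.30 ± 2.10 CPM (SD, n = 2 each), which is a log2 fold change of -2.47 (SE 0.558, edgeR adjusted p = 0.0158). At 4932851 Dox replicate 2 had 0 counts, which counting error alone allows for up to 3, and the log2 fold change against Control was -3.07 (edgeR adjusted p = 0.0432). The windows at 3179501 and 771101 had -2.24 and 1.86, with edgeR adjusted p-values of 0.0478 and 0.0484.

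These 2 comparisons of induction share no library. Over the members, 46% of windows had log2 fold changes above 0 in both and 21.6% below 0 in both, whereas over the whole table these shares were 34.8% and 32.5%. The correlation across member windows, which overlap and share the tests' scaling, was 0.40, against 0.55 in the table.

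No member passed the test for etoposide. Over all 8 libraries, 0 of the 3225 windows passed edgeR's test, and 0 passed with DESeq2 or limma-voom. At an unadjusted p under 0.05 there were 226 (7.01%, where 5.83% of all windows had one), 183 of them higher and 43 lower. With etoposide the median log2 fold change was 0.10 over the members, against a median close to 0 over all windows, and the members' median was 0.15 without Control replicate 1. For the share of all window counts, the etoposide-treated libraries averaged 1.26 ± 0.109% and the others 1.17 ± 0.104% (SD, n = 4 each), and these sets overlapped.

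The window with the smallest p for etoposide was at 2262401 (region 2262051 to 2262550), where DoxEtop had 6 and 7 counts and Etop 5 and 9, against 22 and 21 in the Dox libraries and 27 and 30 in the Control libraries. All 4 treated libraries were below the 4 untreated ones, and the log2 fold change was -1.69 (SE 0.425), but the edgeR adjusted p over all windows was 0.618. Next came 2 windows at the inner border of the 5 Mb, at 4993501 and 4995751, with log2 fold changes of 1.31 and 1.61 (edgeR adjusted p = 0.618 and 0.639). At 4993501 the counts were 51 and 32 in DoxEtop and 32 and 33 in Etop, against 14 and 5 in Dox and 36 and 17 in Control.

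Neither pairwise comparison of etoposide passed at any member by edgeR, DESeq2 or limma-voom. In AIRE-induced cells (DoxEtop vs Dox) 133 windows had an unadjusted p under 0.05 (4.12%, where 4.26% of all windows did). In cells without induction (Etop vs Control) 192 did (5.95%, where 5.57% of all windows did), and 1 window passed edgeR's test when Etop replicate 2 was left out. The medians of the log2 fold changes were 0.12 and 0.097 for these comparisons in that order. For DoxEtop vs Dox the median was 0.061 without DoxEtop replicate 1. For Etop vs Control it was 0.031 without Control replicate 2, 0.051 without Etop replicate 1 and 0.21 without Control replicate 1. In Etop vs Control the adjoining windows at 3073401 and 3073351 came next after that at 1728101, with 1.70 and 1.72 (edgeR adjusted p = 0.863 each). The 3 smallest p-values in DoxEtop vs Dox were at 4993501, 4993551 and 4986751, with log2 fold changes of 2.03, 2.04 and 1.98 (edgeR adjusted p = 1 each). At 4986751 there were 23 and 28 counts in DoxEtop against 6 in each Dox library. The interaction of AIRE induction and etoposide had 0 calls with each of these tools and 109 windows at an unadjusted p under 0.05 (3.38%, where 4.14% of all windows had one). Its smallest p-values were at 1829651, 3333701 and 3053701, with 3.25, -2.74 and -2.30 on the log2 scale. A difference between cells with and without etoposide in the response to induction was not detectable with 2 libraries per group at this depth.

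Cells given both agents (DoxEtop vs Control) had the largest median shift of 16p13.3 among the comparisons made, a log2 fold change of 0.31 over the members, against 0.013 over all windows. By the test 7 windows rose (0.217% of the members, where 0.154% of all windows rose) and 6 fell (0.186%, where 1.48% of all windows fell). By merged region 1 fell (0.25%, where 3.16% of all regions fell) and 0 rose, where 0.168% of all regions did. The count of 13 was 0 without Control replicate 2 or DoxEtop replicate 1, 1 without Dox replicate 2, 3 without Dox replicate 1, 5 without DoxEtop replicate 2, and rose to 35 and 40 when Etop replicate 2 or Etop replicate 1 was dropped. DESeq2 and limma-voom gave 0, and with loess offsets 13 rose and 2 fell. This comparison shares its DoxEtop and Control libraries with those above.

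Among its losses, the window at 4527001 (region 4526151 to 4527250) had 1 and 6 counts in DoxEtop, against 28 and 36 in Control. Its log2 fold change was -2.65 (SE 0.688, edgeR adjusted p = 0.0303). The others, at 3333401, 3234201, 3184851 and 2932701, had log2 fold changes of -2.27 to -1.66 (edgeR adjusted p = 0.0374 to 0.0475). Gains were found at 2033551, 2524851, 1053501, 2771051, 733851 and 3767401, with 1.57 to 2.19 (edgeR adjusted p = 0.0306 to 0.048). At 2033551 the DoxEtop libraries had 42 and 39 counts, against 21 and 18 in Control. The window at 1053501 was uneven between replicates, with 47 and 14 counts in DoxEtop against 16 and 4 in Control. At 3767401, beside the longest stretch without windows, DoxEtop had 25 and 22 counts, against 9 and 6 in Control.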

How the data were processed

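FAIRE-seq libraries came from fixed cells, with paired-end reads of 100 bp, per the labels' protocols. Trim Galore, Bowtie2, Bowtie and hg19 are named in the submitters' processing notes. How windows were selected and counted is not given in the sources used here, and input was not analysed here. The deposited table holds raw counts per window of 150 bp every 50 bp, with at least 111 summed counts per window, so its column totals are not library depths.

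Windows of the whole table were tested with edgeR 4.0.16 (limma 3.58.1 and DESeq2 1.42.0 as alternatives) in R 4.3.3 by two-sided quasi-likelihood F tests after TMM scaling. A group-means fit (4 residual degrees of freedom) gave the pairwise contrasts and the interaction, and an additive fit (5) gave both main effects. filterByExpr removed 0 windows. SE is the fold change divided by the square root of F. Relative levels used log2 CPM with a prior count of 2. The procedure was also run on simulated counts, drawn independently for each window with a common spread. The windows of the table overlap, so no conclusion is drawn from that run. Replicate numbers did not pair the libraries.

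Levels are named for the 8 tallest and 3 widest regions. In a comparison with calls in 20 or more regions, the named windows are up to 10 with the lowest and 10 with the highest fold change, 1 per region, among called windows of above-median level whose groups do not overlap. With fewer, all are named, and with 0 calls the 3 smallest p. Members, lists and rules were chosen with earlier results of these data known.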

Additional observations from a re-analysis of the deposited data

How the results depend on the processing

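The median log2 fold change of 16p13.3 windows with AIRE induction stayed above 0 under every alternative run, at 0.18 to 0.24 when single libraries were left out. The 131 windows called for AIRE induction came to 6 with limma-voom and to 32 to 158 with 1 library left out. Dox vs Control (6) came to 0 with DESeq2 and limma-voom, 3 with loess offsets, 3 with the replicate block and 0 to 14 with 1 library left out. DoxEtop vs Etop (32) came to 8 with DESeq2, 0 with limma-voom and 0 to 121 with 1 library left out. DoxEtop vs Control (13) came to 0 with DESeq2 and limma-voom, 6 with the replicate block and 0 to 40 with 1 library left out. Etop vs Control had 0 to 1, and the remaining comparisons stayed at 0. The 28 merged regions called for AIRE induction came to 0 with limma-voom. A filter that keeps a window only if it passes a minimum of summed counts also after the levels of induced and other libraries are exchanged, a choice made after seeing the data, gave 57 higher and 44 lower for AIRE induction and 21 calls for DoxEtop vs Etop. Leaving out a library of a pair leaves 1, which is assumed to vary like the other groups, so fewer calls there cannot be told apart from lost replication. The cause of the other changes was not tested. With limma-voom, calls for AIRE induction fell over the whole table as well, from 19062 windows to 859.

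The replicate numbers only name the libraries. Deviations of same-numbered libraries correlated at -0.073 to 0.12, and the replicate block gave 121 calls for AIRE induction in place of 131, with 23 for DoxEtop vs Etop in place of 32. No window named for its change or its p-value in a comparison changed sign under the refits that gave it a value. Windows named for height or width were not followed. Of the 19 windows named for AIRE induction, 18 stayed called with DESeq2, 17 with loess offsets, 19 with the replicate block and 3 with limma-voom. Without Control replicate 2, Dox replicate 2 or DoxEtop replicate 1, 11 stayed called each time, and leaving out each of the other libraries kept 14 to 18. With 2 libraries per group and a median of 15 to 27 counts per window and library, small changes at single windows are not detectable here.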

Other observations

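With AIRE induction, 1 region and 2 pairs of regions no more than 500 bp apart held windows that passed the test in opposite directions. This pattern was noticed in the data and was not tested. In the region from 732701 to 735200, 6 windows rose and the first window, at 732701, fell, with 8 and 13 counts in DoxEtop and 1 and 4 in Dox, against 29 and 25 in Etop and 32 and 17 in Control. Its log2 fold change was -1.74 (SE 0.445, edgeR adjusted p = 0.00804). On the CPM scale the sets overlapped at 732701, with DoxEtop replicate 2 at 2.571 CPM and Control replicate 2 at 2.546 CPM. Among the windows that rose, the induced and the other libraries also overlapped at 733701 and 733751. In both of these DoxEtop replicate 1 was the highest library, at 10.3 CPM. Of the 62 regions with called windows, the region from 732701 to 735200 alone held both directions.

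Next to the gain at 2033551, in a separate region of 200 bp that starts at 2035001, the window at 2035001 fell. It had 6 and 4 counts in DoxEtop and 9 and 16 in Dox, against 31 and 18 in Etop and 28 and 32 in Control, a log2 fold change of -1.27 (SE 0.415, edgeR adjusted p = 0.0452). After scaling the sets overlapped there, with Dox replicate 2 at 3.53 CPM and Control replicate 1 at 3.37 CPM. A similar pair lay at 3070401 and 3072001, in neighbouring regions, with log2 fold changes of 1.39 and -1.33 (edgeR adjusted p = 0.0311 and 0.0216). At 3070401 the induced and the other libraries overlapped as well, with 9 and 31 counts in DoxEtop and 22 and 15 in Dox, against 12 and 9 in Etop and 12 and 5 in Control.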
